A study of Mus musculus with 3 samples.

Results

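The genes described here are 42 genes of mitosis, the stage of the cell cycle in which the chromosomes are separated and the cell divides. They form a list of names of genes with known roles in mitosis, and all 42 had a row among the 56833 genes of the deposited table. RNA was sequenced from mouse ankle synovium cells of Efhd1CreER; Ai9 animals, sorted for tdTomato, the fluorescent protein that the Ai9 reporter makes once Cre has acted. After sorting, the cells grew for 24 h in DMEM with F12 on collagen-coated plates. The plate was the variable: its stiffness was 0.2 kPa in the group called soft here, 8 kPa in the intermediate group and 64 kPa in the stiff group, with 1 library each. The study asked how matrix stiffness acts on these cells, labelled telocytes, and on their turn toward fibroblasts. The labels describe the sorted cells as Efhd1-expressing, and CreER is a Cre that acts when tamoxifen is given. The tamoxifen treatment, the number, age and sex of the animals, and whether the cells of the 3 plates came from the same sort, are not given in the sources used here.

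Entry into mitosis is driven by Cdk1 bound to cyclins A and B, and exit from it by the anaphase-promoting complex, a ubiquitin ligase that marks cyclin B and other proteins for destruction. Between them the chromosomes attach to the spindle through kinetochores, a checkpoint holds the cell until all are attached, and a ring of actin and myosin then pinches the cell apart. Most of these genes are transcribed late in the cycle: in resting cells the DREAM complex keeps them off, largely through a promoter element called the CHR, and in cycling cells B-Myb, FoxM1 and the CCAAT-binding factor NF-Y turn them on. In bulk RNA their level can follow the share of cells in late G2 and mitosis, and fewer such cells cannot be told apart from less of this RNA per cell.

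With 1 library per stiffness no p-value is given. The values are normalized counts, that is, reads per gene divided by a size factor of the library. Log2 ratios were taken after adding 1 to each value. The interval beside a ratio is an exact Clopper-Pearson 95% interval for counting error alone, and PCR copies of a molecule are counted as separate reads. The spread between cultures was not measured. The libraries held 25487064 (soft), 28081600 (intermediate) and 26474862 (stiff) reads. Of the genes in the table, 11873 had a mean of at least 50 normalized counts over the 3 libraries and form the background. Among the mitosis genes 41 of 42 did, and Cenpe, at a mean of 48.8, did not. Of the 8 fibroblast and telocyte markers, Col1a1 had 78648, 110715 and 151834 and Pdgfra 5884, 6298 and 5118 normalized counts, in order of stiffness, while Dpt had 191, 163 and 127. The median stiff to soft ratio of the 7 with a mean of at least 50 was 0.28, with 4 above 0 and 3 below. The median became 0.01 once a trend with transcript length and GC content, described below, was subtracted. With coding length in place of transcript length it became -0.20, with 3 above 0 and 4 below. Cd34, which with Pdgfra is used to define telocytes, had 235, 242 and 318 normalized counts, and Efhd1 had only 10, 5 and 3 reads. All 12 macrophage markers were also present, and their summed normalized counts were 29749, 36632 and 63852 in the same order. Each of the 12 was higher in the stiff than in the soft library, with a median log2 ratio of 1.25. The lymphocyte markers Cd3e, Cd3g and Ms4a1 had no read in any library. Of the 4 neutrophil markers S100a9 and Ly6g had none, Mpo had 2, 2 and 0 reads, and S100a8 had 210, 220 and 197 reads, in order of stiffness. The 5 mural cell markers summed to 2278, 3162 and 2975 normalized counts, mostly Cspg4 (1642, 2496 and 2376) and Notch3 (529, 601 and 512), and the 5 endothelial markers to 52.3, 66.9 and 71.8. The markers within either set did not move alike. Of the other mural markers, Rgs5 had 87, 61 and 82 reads, Kcnj8 4, 0 and 1, and Abcc9 13, 8 and 2. Of the endothelial markers, Kdr had 21, 27 and 45 reads and Tek 13, 22 and 21. Pecam1 had 12, 13 and 4 reads, Cdh5 5, 3 and 0, and Emcn 0, 6 and 0. The part of RNA from these cell types in the values of the mitosis genes was not tested.

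RNA of the mitosis genes was lowest on the stiff plate. Together the 42 genes took 0.200% (soft), 0.210% (intermediate) and 0.161% (stiff) of each library's reads. Against the intermediate library, all 41 genes with a mean of at least 50 were lower in the stiff library, with a median log2 ratio of -0.39, while 48.9% of the background genes were lower and their median was 0.01. A log2 ratio of -0.5 or lower was reached by 11 of the 41 (background 3.42%), and the counting interval lay wholly below 0 for 39 of them (background 22.0%). The exceptions were Kif4 and Mki67. None of the 41 reached 0.5 upward (background 5.42%).

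The stiff and soft libraries differed in the same direction by a smaller median. Of the 41 genes 36 were lower in the stiff library (background 48.9%), the median log2 ratio was -0.28 against 0.00 for the background, and 30 had an interval wholly below 0 (background 25.9%). A log2 ratio of -0.5 or lower was found for 6 genes (background 3.77%) and one of 0.5 or higher for 1 (background 11.8%). The 6 were Cdc25c, Ccnb2, Cenpa, Pbk, Ect2 and Ttk, with Nuf2 just outside at -0.499. The 1 was Kif4, which was also the only one of the 41 with an interval wholly above 0 (background 31.3%).

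From soft to intermediate the change was small and mostly upward. The median log2 ratio was 0.10 against 0.01 for the background, 11 genes were lower in the intermediate library (background 46.5%) and 30 were higher. An interval wholly above 0 was found for 17 of the 41 (background 21.8%) and wholly below 0 for none (background 13.5%). Kif4 alone reached 0.5 (background 3.94%), and no gene reached -0.5 (background 0.657%). Since the 3 ratios share libraries, they are not independent of each other. Placed by level, 30 of 41 genes were highest in the intermediate library (background 23.2%), 11 in the soft (34.6%) and none in the stiff (42.2%). The stiff library was the lowest for 36 (background 40.0%), the soft for 5 (39.1%) and the intermediate for none (20.9%). For 25 genes the intermediate library was the highest and the stiff the lowest (background 14.4%).

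**Figure D1:**
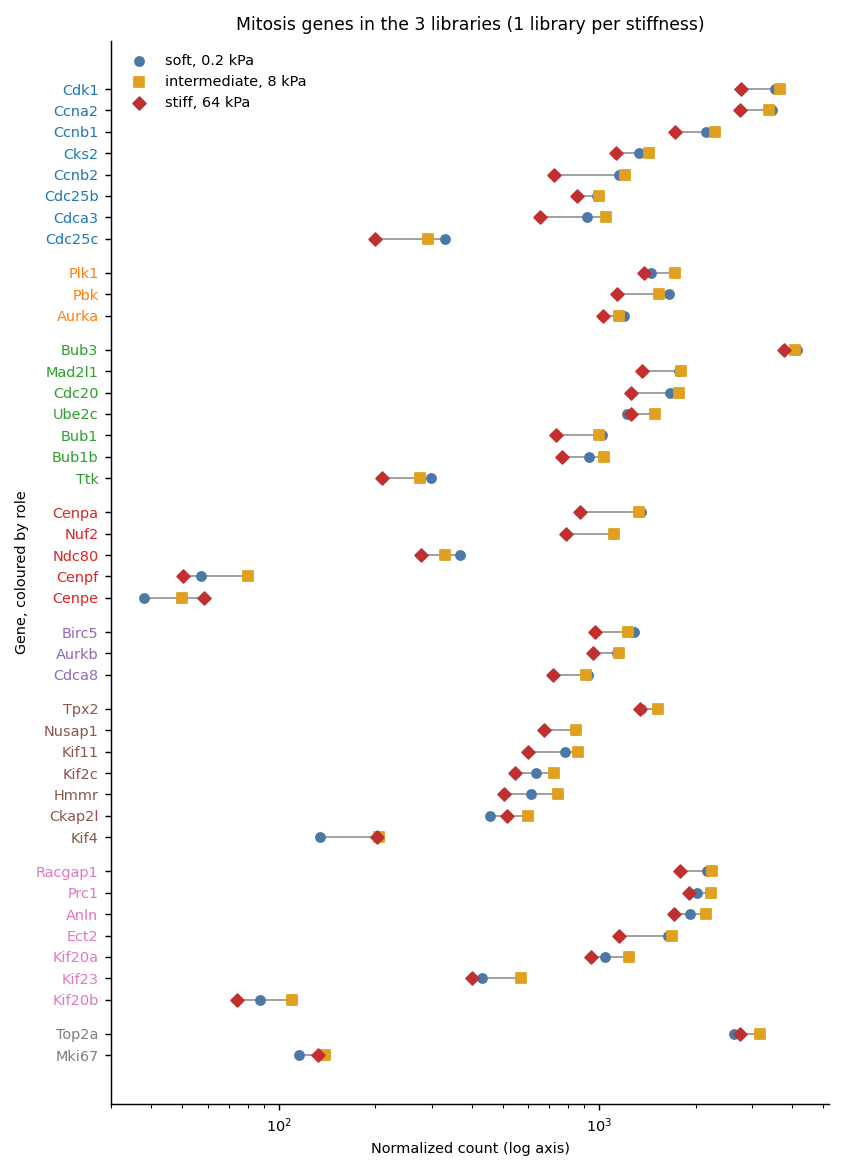
Normalized counts (log axis) of the 42 mitosis genes, one row per gene coloured by role, in the soft (circle), intermediate (square) and stiff (diamond) library. There is 1 library per stiffness and so no error bar, and the stiff library is the lowest for 36 of the 41 genes with a mean of at least 50.

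Promoters were compared with those of other genes. In the RefSeq promoter table (build GRCm38.p6) 36 of the 42 genes had 39 promoters, each the 250 bases before and 50 after a start. The CHR was searched as TTTGAA and in the variant form TTCGAA, and the NF-Y element was searched as CCAAT, on both strands. The variant is its own reverse complement, and a CHR match can share a base with a CCAAT match. For the 3 genes with more than 1 start, promoters can share sequence. In the 250 bases before the start CCAAT was present in 31 of the 39 promoters (79.5%), against 35.2% of the 11962 promoters of background genes and 33.8% of all 32851 promoters. More than 1 CCAAT stood in 22 of the 39 (56.4%, against 12.8% and 10.1%). A CHR sequence was present in 15 (38.5%), against 12.2% and 17.1%. With the 50 bases after the start included, a CHR sequence was present in 32 of the 39 (82.1%), against 13.9% and 19.2%, which covered 29 of the 36 genes. The E2F-type letters TTCCCGC, also held by the longer form TTTCCCGC, and those of a further form, TTTGGCGC, were in none of the 39, against 7.43% and 4.19% of the other sets before the start. These are matches of letters and not measured binding sites.

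The 4 genes with the highest mean whose promoters held both a CHR sequence and CCAAT before the start are printed to show how these elements lie in abundant mitosis genes. They are given 5′ to 3′ on the gene's strand, from RefSeq, placed by exact match in GRCm39, and end no more than 30 bases past the start of the GENCODE canonical transcript. The RefSeq start lay past that canonical start by 141 bases for Bub3, 26 for Cdk1, 26 for Top2a and 37 for Prc1. The CHR match of Prc1, and the one nearest the RefSeq start in Cdk1 and Top2a, therefore lie inside the canonical transcript. Capitals mark the CHR and CCAAT matches on either strand. On the reverse strand the first CHR form reads TTCAAA, while the NF-Y element there reads ATTGG. The positions are chr7:131161973-131162111 (plus strand) for Bub3, chr10:69188743-69188992 (minus) for Cdk1, chr11:98915016-98915265 (minus) for Top2a and chr7:79943974-79944216 (plus) for Prc1.
Bub3: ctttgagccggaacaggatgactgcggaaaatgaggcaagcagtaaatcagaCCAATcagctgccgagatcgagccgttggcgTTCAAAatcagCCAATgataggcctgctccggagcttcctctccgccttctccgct
Cdk1: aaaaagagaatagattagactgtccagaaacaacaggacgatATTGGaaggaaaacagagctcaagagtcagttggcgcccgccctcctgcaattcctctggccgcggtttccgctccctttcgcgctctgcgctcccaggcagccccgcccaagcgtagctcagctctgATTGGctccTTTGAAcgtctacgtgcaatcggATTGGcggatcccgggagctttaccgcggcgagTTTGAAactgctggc
Top2a: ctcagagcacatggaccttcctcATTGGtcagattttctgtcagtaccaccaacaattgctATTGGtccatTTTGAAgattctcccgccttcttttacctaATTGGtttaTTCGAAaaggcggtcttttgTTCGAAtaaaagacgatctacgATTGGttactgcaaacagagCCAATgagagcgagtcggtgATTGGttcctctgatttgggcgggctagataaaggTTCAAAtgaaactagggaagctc
Prc1: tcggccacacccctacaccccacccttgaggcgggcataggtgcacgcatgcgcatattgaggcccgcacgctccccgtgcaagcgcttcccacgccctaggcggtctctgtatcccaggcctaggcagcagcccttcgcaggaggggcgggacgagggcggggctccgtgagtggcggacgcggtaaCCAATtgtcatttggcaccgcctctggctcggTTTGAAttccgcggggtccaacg
The Top2a stretch held 6 CCAAT and 4 CHR sequences, that of Cdk1 held 3 and 2, that of Bub3 2 and 1, and that of Prc1 1 of each. The genes did not move alike: stiff to soft, the log2 ratios were -0.35 for Cdk1, -0.13 for Bub3, -0.09 for Prc1 and 0.07 for Top2a. Over the 12 genes with both elements before the start the ratio ran from -0.67 to 0.19 with a median of -0.20, and over the 7 with neither from -0.50 to -0.16 with a median of -0.38. With the 50 bases after the start added, a setting chosen after seeing the data, the median was -0.28 over 25 genes with both and -0.39 over 4 with neither. The ranges overlap, and a difference between the classes was not tested.

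Genes of mitotic entry were all lower on the stiff plate. All 8 were lowest in the stiff library (background 40.0%), and 3 of 8 reached -0.5 against the intermediate library (background 3.42%). The catalytic kinase Cdk1, whose GENCODE canonical transcript spans chr10:69170976-69188768 (minus strand, 8 exons) in GRCm39, had 3537 (soft), 3658 (intermediate) and 2781 (stiff) normalized counts. The stiff to intermediate log2 ratio was -0.40 (interval from -0.47 to -0.32). Ccna2, the cyclin of S and G2 phase, had 3473 (soft), 3399 (intermediate) and 2756 (stiff) normalized counts, so the soft and intermediate values lay close together and the stiff value below them. Of the B cyclins that start mitosis, Ccnb1 had 2149.8 (soft), 2296 (intermediate) and 1728 (stiff) normalized counts. Ccnb2, at chr9:70314974-70328874 (minus strand, 9 exons), had 1154 (soft), 1201 (intermediate) and 724 (stiff) normalized counts. Both had their highest value on the intermediate plate and their lowest on the stiff plate, and the log2 ratio of stiff to intermediate was -0.41 (interval from -0.50 to -0.32) for Ccnb1 and -0.73 (interval from -0.86 to -0.60) for Ccnb2. The intervals do not overlap, so the ratio of Ccnb2 was lower than that of Ccnb1 beyond counting error. Ccnb2 had the lowest stiff to intermediate ratio of the 41 genes. The intermediate to soft ratio was 0.10 (interval from 0.01 to 0.18) for Ccnb1 and 0.06 (interval from -0.06 to 0.17) for Ccnb2. For Ccnb2 the soft and intermediate values thus lay within counting error of each other.

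Of the phosphatases that switch Cdk1 on, Cdc25c and Cdc25b were also lowest on the stiff plate, while Cdc25a was not. Cdc25a, from the list of other genes with roles in mitosis, had 558 (soft), 567 (intermediate) and 586 (stiff) normalized counts. Cdc25c had 331 (soft), 293 (intermediate) and 199.97 (stiff) normalized counts, with the stiff library below both others and a stiff to soft log2 ratio of -0.72 (interval from -0.99 to -0.47), the lowest of the 41. Cdc25b had 984 (soft), 996 (intermediate) and 850.1 (stiff) normalized counts, with -0.21 (interval from -0.35 to -0.08). Cdca3, an adaptor for the destruction of the Cdk1 inhibitor Wee1, had 919.6 (soft), 1052 (intermediate) and 652 (stiff) normalized counts, and its stiff to intermediate ratio was -0.69 (interval from -0.83 to -0.55). Cks2, a small protein bound to Cdk1, had 1334 (soft), 1429 (intermediate) and 1128 (stiff) normalized counts. Among the mitotic kinases that act with Cdk1, Plk1 had 1454 (soft), 1723 (intermediate) and 1381 (stiff) normalized counts, Aurka 1196 (soft), 1152 (intermediate) and 1028 (stiff) normalized counts and Pbk 1648 (soft), 1542 (intermediate) and 1133 (stiff) normalized counts. For Plk1 the soft and stiff libraries did not differ beyond counting error (log2 ratio -0.07, interval from -0.18 to 0.03), whereas the intermediate library was above both.

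The checkpoint genes and the genes of the anaphase-promoting complex held both small and larger differences. Mad2l1, which encodes the checkpoint's inhibitor Mad2, had 1772 (soft), 1802 (intermediate) and 1363 (stiff) normalized counts. Bub1, a kinase at unattached kinetochores, had 1023 (soft), 996 (intermediate) and 731 (stiff) normalized counts. Bub1b, encoding BubR1, had 928 (soft), 1036 (intermediate) and 766 (stiff) normalized counts. In each of them the stiff library was the lowest, with stiff to intermediate log2 ratios of -0.40 (interval from -0.50 to -0.30), -0.45 (interval from -0.59 to -0.31) and -0.44 (interval from -0.57 to -0.30). Ttk, the kinase at the head of the checkpoint, had 298 (soft), 275 (intermediate) and 210.2 (stiff) normalized counts, with the soft and intermediate libraries within counting error of each other and the stiff library below both. Bub3, their binding partner, was covered by the most reads of the 42, with 4139 (soft), 4098 (intermediate) and 3780.0 (stiff) normalized counts. Its stiff to intermediate ratio of -0.12 (interval from -0.18 to -0.05) was nearer to 0 than that of every other gene of the 41 except Kif4 and Mki67. Cdc20, the activator of the complex, had 1661 (soft), 1779 (intermediate) and 1255 (stiff) normalized counts and a ratio of -0.50 (interval from -0.61 to -0.40). Ube2c, the enzyme that hands ubiquitin to it, had 1221 (soft), 1497 (intermediate) and 1258 (stiff) normalized counts. Unlike Cdc20, Ube2c did not differ between the stiff and the soft library beyond counting error, at 0.04 (interval from -0.07 to 0.16).

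Kinetochore genes had a median stiff to intermediate ratio of -0.55 over the 4 with a mean of at least 50, and the fifth was the one gene that was highest on the stiff plate. Cenpa, the histone variant that marks centromeres, at chr5:30824121-30832174 (plus strand, 5 exons), had 1352 (soft), 1332 (intermediate) and 874 (stiff) normalized counts. The soft and intermediate values were close to each other and the stiff value was lower, with a stiff to soft ratio of -0.63 (interval from -0.76 to -0.50). Nuf2 and Ndc80 form an arm of the complex that holds microtubules. Nuf2 had 1112 (soft), 1112 (intermediate) and 787 (stiff) normalized counts and Ndc80 369 (soft), 329.9 (intermediate) and 278 (stiff) normalized counts, with stiff to soft ratios of -0.50 and -0.41. The motor Cenpe and the large protein Cenpf were far less covered. Cenpf had 56 (soft), 85 (intermediate) and 49 (stiff) reads, and Cenpf in the stiff library was below the intermediate one beyond counting error, at -0.66 (interval from -1.21 to -0.15). Cenpe had 37, 53 and 57 reads, in order of stiffness, and its stiff to soft ratio was 0.61 (interval from 0.00 to 1.26). Cenpe was the only one of the 42 genes with its highest value in the stiff library. Its stiff and intermediate values lay within counting error of each other (log2 ratio 0.22, interval from -0.34 to 0.79).

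The chromosomal passenger complex, which corrects wrong attachments and then moves to the midzone, had like values in its 3 genes. Aurkb, its kinase, had 1136 (soft), 1158 (intermediate) and 956 (stiff) normalized counts. Birc5, or survivin, had 1283 (soft), 1235 (intermediate) and 971 (stiff) normalized counts. Cdca8, or borealin, had 924 (soft), 909 (intermediate) and 717 (stiff) normalized counts. For these 3 the soft and intermediate values lay within counting error of each other, and the stiff to intermediate ratios were -0.28, -0.35 and -0.34, with overlapping intervals. Incenp, the scaffold of the same complex, is not among the 42 and had another order, with 493 (soft), 654 (intermediate) and 665 (stiff) normalized counts.

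**Figure D2:**
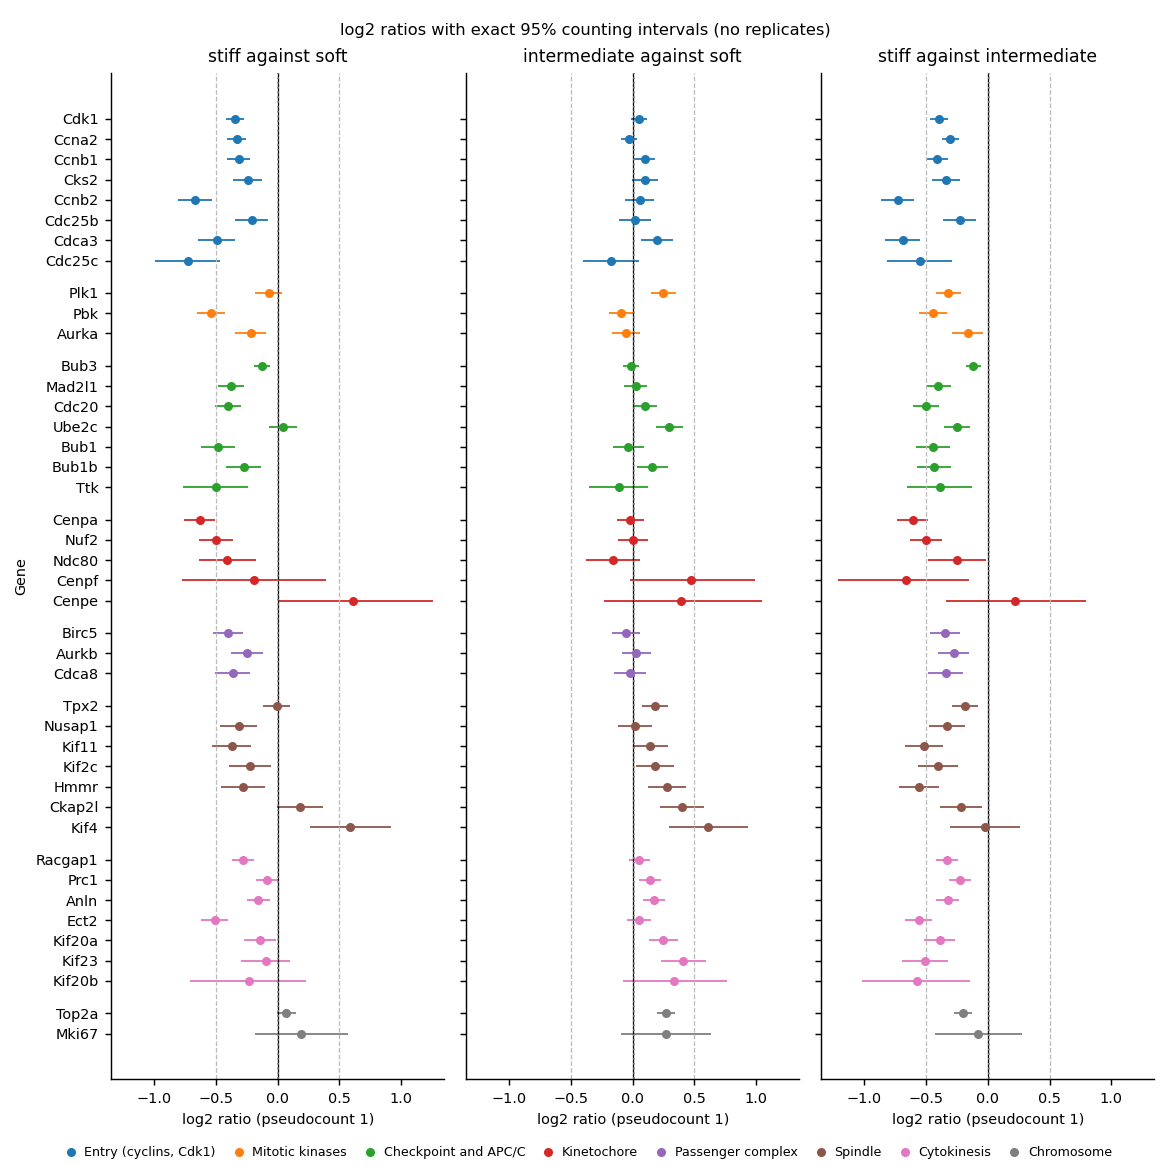
Log2 ratios (dots) with exact 95% counting intervals (bars) of the 42 mitosis genes in the 3 comparisons, grouped by role, with the dotted line at the median of all genes with a mean of at least 50 and dashed lines at -0.5 and 0.5. In the stiff against intermediate panel all dots except that of Cenpe lie below 0.

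Among the 7 spindle genes the stiff to soft ratio ran from -0.37 for Kif11 to 0.59 for Kif4. Kif11, the motor that pushes the spindle poles apart, had 780.2 (soft), 862 (intermediate) and 602 (stiff) normalized counts. Hmmr, which helps to focus the poles, had 613 (soft), 742 (intermediate) and 505 (stiff) normalized counts, and Kif2c, which takes microtubules apart, 637 (soft), 721 (intermediate) and 546 (stiff) normalized counts. All 3 were highest on the intermediate and lowest on the stiff plate, with stiff to intermediate ratios of -0.52, -0.56 and -0.40. Nusap1, a microtubule stabiliser, had 841 (soft), 849 (intermediate) and 675 (stiff) normalized counts. Tpx2, the activator of the Aurora A kinase, had 1349 (soft), 1525 (intermediate) and 1341 (stiff) normalized counts, so that the soft and stiff values were nearly equal (log2 ratio -0.01, interval from -0.12 to 0.10). Ckap2l had 456 (soft), 601 (intermediate) and 516 (stiff) normalized counts, and its lowest value was in the soft library. Kif4, a motor on chromosome arms, at chrX:99669343-99770946 (plus strand, 30 exons), had 134 (soft), 206 (intermediate) and 202 (stiff) normalized counts. Its stiff and intermediate values were nearly equal and both lay above the soft value, with a stiff to soft interval from 0.26 to 0.92, resting on 131 reads in the soft and 197 in the stiff library.

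In the cytokinesis group all 7 genes were highest in the intermediate and lowest in the stiff library (background 14.4%). Ect2, the activator of RhoA at the cell's equator, had 1639 (soft), 1694 (intermediate) and 1149.6 (stiff) normalized counts, with a stiff to intermediate ratio of -0.56 (interval from -0.67 to -0.45). Kif23 and Racgap1 together form centralspindlin, which recruits Ect2. Kif23 had 431 (soft), 572 (intermediate) and 402 (stiff) normalized counts, and Racgap1 2169 (soft), 2250.2 (intermediate) and 1785 (stiff) normalized counts. The intermediate to soft ratio was 0.41 (interval from 0.23 to 0.59) for Kif23 and 0.05 (interval from -0.03 to 0.14) for Racgap1, so the partners differed in that step beyond counting error. Prc1, which bundles midzone microtubules, had 2024 (soft), 2227 (intermediate) and 1906 (stiff) normalized counts. For Prc1 the soft and stiff values lay within counting error of each other (log2 ratio -0.09, interval from -0.18 to 0.01). Anln, the anillin of the contractile ring, had 1915 (soft), 2153 (intermediate) and 1718 (stiff) normalized counts. Kif20a, which carries the passenger complex to the midzone, had 1041 (soft), 1236 (intermediate) and 942 (stiff) normalized counts. Kif20b, at 85, 117 and 72 reads, had a stiff to intermediate ratio of -0.57 (interval from -1.02 to -0.14).

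Top2a and Mki67, of chromosome structure, were lowest in the soft library (background 39.1%). Top2a, which untangles sister chromatids, had 2629.6 (soft), 3169 (intermediate) and 2759.6 (stiff) normalized counts, and the stiff to soft ratio was 0.07 (interval from -0.01 to 0.15). Mki67, whose protein coats mitotic chromosomes and is the usual histological mark of cycling cells, had 116 (soft), 139.5 (intermediate) and 132 (stiff) normalized counts, a ratio of 0.19 (interval from -0.18 to 0.57). Neither differed between stiff and soft beyond counting error. Against the intermediate library Top2a was lower in the stiff one, at -0.20 (interval from -0.27 to -0.13), and for Mki67 no difference was detectable at this depth (-0.08, interval from -0.43 to 0.27).

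**Figure D3:**
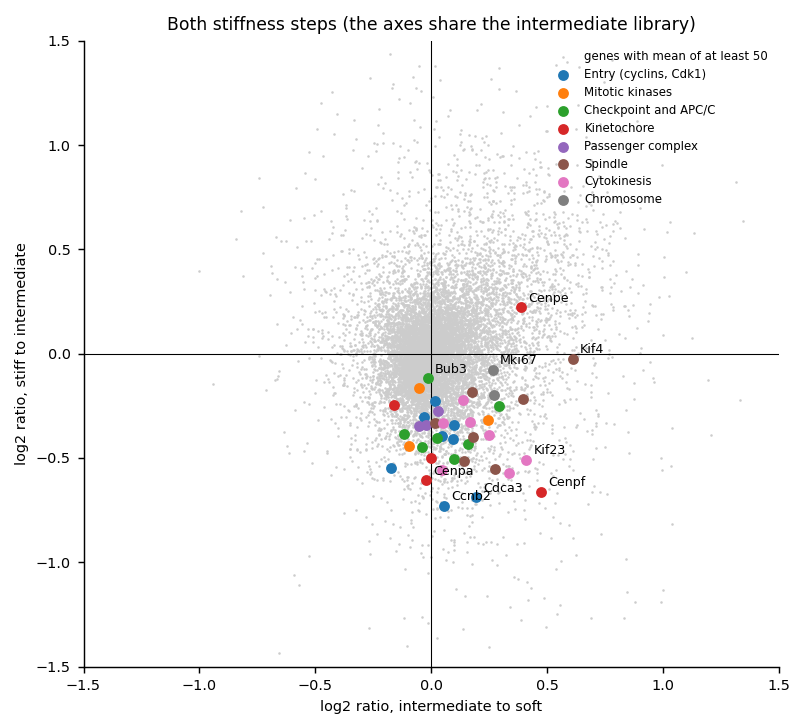
Log2 ratio of intermediate to soft (x axis) and of stiff to intermediate (y axis) for each mitosis gene (coloured by role) and for genes with a mean of at least 50 (grey). The axes share the intermediate library, and the mitosis genes lie below 0 on the y axis, apart from Cenpe.

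In all genes the ratios depended on length: by coding length of the GENCODE canonical transcript, the median stiff to soft log2 ratio was -0.05 for 6167 genes of up to 1500 nt, 0.05 for 3574 genes of more than that and up to 3000 nt and 0.31 for 1560 longer genes. In the mitosis genes the same classes had medians of -0.37 (19 genes), -0.21 (13 genes) and -0.17 (10 genes), so each median lay below that of all genes of its class. A stiff to soft ratio above 0 was found for 6 of the 42 genes. Of these Cenpe, Kif4, Mki67 and Top2a were 4 of the 10 in the longest class, in which 80.6% of all genes were above 0, and the others were Ckap2l and Ube2c. Spearman's rho between coding length and the stiff to soft ratio was 0.43 across the 42 genes, and 0.33 across the 11301 background genes with a coding length. These are descriptions across genes that share the same libraries. The cause of the trend with length was not tested.

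A trend was fitted to all genes and subtracted, a robust local linear fit of the ratio on length and GC content. With transcript length, 36 of 41 mitosis genes were still lower in the stiff than in the soft library (background 50.5%) at a median of -0.25, and 41 of 41 were lower in the stiff than in the intermediate library (background 50.2%) at -0.34. With coding length, chosen after the data had been seen, 38 of 41 were lower against soft (background 50.9%) at -0.26 and 41 of 41 against intermediate (background 49.8%) at -0.35. The number at -0.5 or lower between stiff and soft became 3 of 41 (background 3.98%) with transcript length and 5 of 41 (background 3.67%) with coding length. Ccnb2 and Cdc25c were in both sets, and the third with transcript length was Cdc25b, which moved from -0.21 to -0.53 there and to -0.22 with coding length. Between stiff and intermediate it became 7 of 41 in either fit (background 3.3% and 2.91%), with Ccnb2, Cdc25c, Cdca3, Cdc20, Cenpa and Cenpf in both. The ratio of Kif4 between stiff and soft was 0.49 and 0.35 after subtraction, and none of the 41 was at 0.5 or higher (background 7.63% and 7.54%). Between intermediate and soft, Kif4 was at 0.5 or higher with transcript length (1 of 41, background 2.11%) and no gene was with coding length (background 1.94%).

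**Figure D4:**
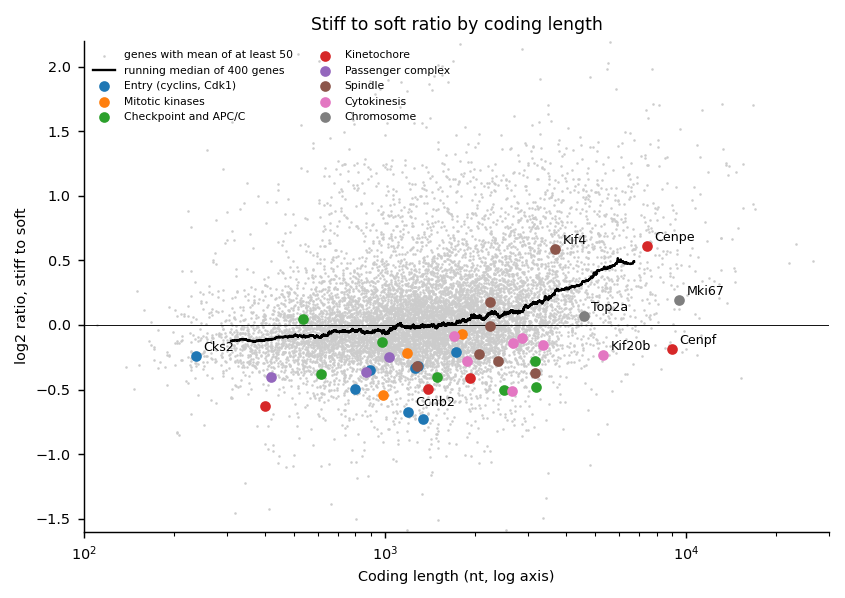
Log2 ratio of stiff to soft against coding length (log axis) for the mitosis genes (coloured by role) and genes with a mean of at least 50 (grey), with the running median over 400 genes (black line). Most mitosis genes lie under the line at their own length and Kif4 lies above it, while Cenpe, Cenpf and Mki67 are longer than the end of the line.

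Levels between genes were compared per coding kilobase. The mean over the 3 libraries ran from 5473 normalized counts per coding kilobase for Cks2, 4096 for Bub3 and 3732 for Cdk1 down to 17.0 for Kif20b, 13.6 for Mki67, 6.96 for Cenpf and 6.58 for Cenpe. The kinetochore genes alone spanned 2950.2 for Cenpa to 6.58 for Cenpe. Top2a, with a coding length of 4584 nt, stood at 622. The order depended on the length used. Per kilobase of the whole transcript Cks2 was again the highest at 1874, followed by Ube2c at 1371 and Birc5 at 1187. On that measure Cdk1 stood at 760 and Bub3 at 551. Level per coding kilobase and coding length had a Spearman correlation of -0.86 across the 42 genes and of -0.53 across the 11301 genes, a relation that dividing by length favours in part. The 4 genes of longest coding length, Mki67, Cenpf, Cenpe and Kif20b, had the fewest reads of the 42. By transcript length Cdc25b (7694 nt) and Bub3 (7274 nt) were longer than Kif20b (5587 nt). Level per kilobase of transcript and transcript length had a Spearman correlation of -0.69 across the 42 genes and -0.39 across 11633 background genes.

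**Figure D5:**
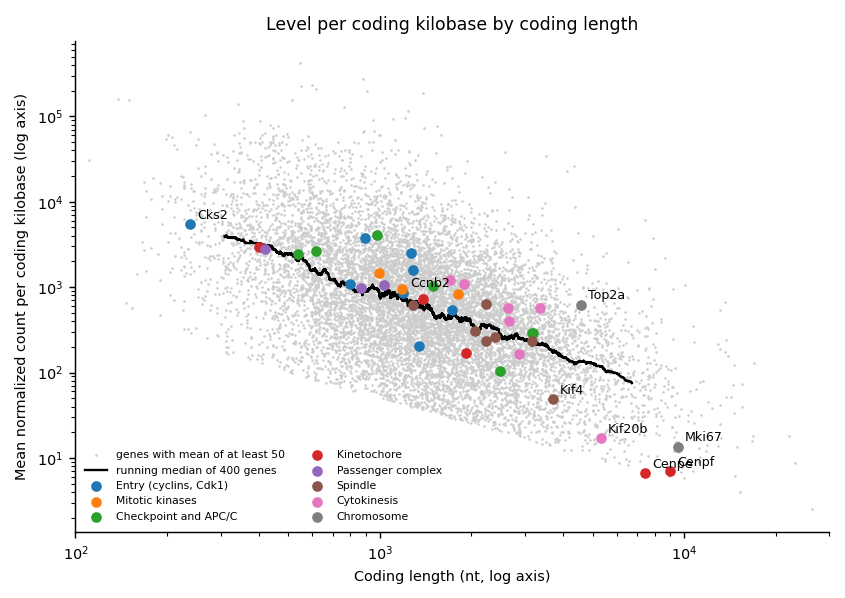
Mean normalized count per coding kilobase (log axis) against coding length (log axis) for the mitosis genes (coloured by role) and genes with a mean of at least 50 (grey), with the running median over 400 genes (black line). Cks2 is the highest at 5473, and Cenpe, Cenpf, Mki67 and Kif20b are the lowest, at 6.58 to 17.0.

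Other genes with roles in mitosis were also mostly lower on the stiff plate. Of 81 such genes 80 had a row and all 80 a mean of at least 50. In the stiff library 57 were lower than in the soft library with a median of -0.22 (background 48.9% lower, median 0.00), and 65 were lower than in the intermediate library with a median of -0.24 (background 48.9% lower, median 0.01). Against soft 14 of 80 reached -0.5 (background 3.77%) and 1 reached 0.5 (background 11.8%). After subtraction of either trend the 14 became 6 (background 3.98% with transcript length and 3.67% with coding length), and the median was -0.15 and -0.20. The 14 included the kinetochore genes Cenpw (-0.78), Ska1 (-0.73), Spc24 (-0.56), Ska3 (-0.54), Cenpp (-0.52) and Knstrn (-0.66). The others were the phosphatase gene Cdkn3 (-0.74), Esco2 (-0.59), the motor Kif18a (-0.58), Depdc1a (-0.58), Shcbp1 (-0.55), Hmgb2 (-0.54), the condensin subunit Ncapg (-0.51) and the kinase Nek2 (-0.51). The 1 that was higher was Cit, the citron kinase of cytokinesis, with 55.4 (soft), 96.2 (intermediate) and 149 (stiff) normalized counts and a stiff to soft ratio of 1.41, which became 0.74 with the trend of transcript length subtracted. Aspm, a spindle pole protein, was highest in the intermediate library, with 111 (soft), 187 (intermediate) and 136 (stiff) normalized counts. The most abundant genes of the list were Tubb4b, H2az1 and Zwint, with stiff to soft ratios of 0.32, -0.37 and 0.07.

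Known regulators of mitosis genes were a list of 15, made of the DREAM complex, its activating partners and NF-Y. Their median stiff to soft ratio was -0.14, and -0.07 and -0.03 with the trends of transcript length and of coding length subtracted. Between stiff and soft 0 of 15 reached -0.5 (background 3.77%) and 0 reached 0.5 (background 11.8%). Foxm1 had 719.7 (soft), 970.0 (intermediate) and 868 (stiff) normalized counts, so its soft value was the lowest. Mybl2, which encodes B-Myb, had 211 (soft), 265 (intermediate) and 273 (stiff) normalized counts, also lowest in the soft library. Their stiff to soft ratios of 0.27 and 0.37 became 0.03 and 0.16 with the trend of transcript length subtracted. The pocket protein genes Rbl1 and Rbl2 had stiff to soft ratios of -0.36 and -0.25, and Lin9, of the complex's core, of -0.40. Rbbp4 and Tfdp1, the most abundant of the 15, had -0.26 and -0.06.

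Genes of DNA replication were also mostly lower on the stiff plate. Of 43 genes 31 were lower than in the soft library (background 48.9%), with a median of -0.12. With the trends of transcript length and of coding length subtracted the median was -0.14 and -0.20, close to that of the other mitotic genes. The abundant members Rrm2, Rrm1 and Pcna had ratios of -0.18, -0.07 and -0.34. Gins1 (-0.57) and Gins3 (-0.58), of the replicative helicase, reached -0.5 (2 of 43, background 3.77%), while Dnmt1 (0.72) and the E2F genes E2f2 (0.68), E2f7 (0.67) and E2f8 (0.53) reached 0.5 (4 of 43, background 11.8%). The 4 became 2 with either trend subtracted (background 7.63% with transcript length and 7.54% with coding length), and the 2 became 1 with that of transcript length (background 3.98%). The 9 regulators of G1 phase had a median of 0.01. Among these Ccnd2, Ccnd1 and Cdk4 had ratios of 0.23, 0.19 and -0.21, and Myc, at 0.68, was the only one at 0.5 (1 of 9, background 11.8%), with 2 of the 9 there once the trend of coding length was subtracted (background 7.54%). Of 7 inhibitors of cyclin-dependent kinases, 6 had a mean of at least 50, and between stiff and soft 0 of 6 reached 0.5 (background 11.8%) or -0.5 (background 3.77%). Cdkn1a, which encodes p21, had 14838 (soft), 15469 (intermediate) and 17367 (stiff) normalized counts, Cdkn1b 1046 (soft), 1039 (intermediate) and 964 (stiff) normalized counts and Cdkn2c 1113 (soft), 1057 (intermediate) and 864 (stiff) normalized counts.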

How the data were processed

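Total RNA of sorted, cultured synovium cells gave 3 mRNA libraries (TruSeq Stranded mRNA, per the labels' protocols), 1 for each stiffness. The deposited signal values are DESeq2-normalized gene counts, as the deposited files name them. Per the submitters' processing notes, the tools included bcl2fastq 2.20.0, STAR 2.7.9a, featureCounts of Subread 2.0.1 and DESeq2 1.34.0, with build GRCm39. The annotation and the strand setting of the counting are not given in the sources used here. All 3 deposited files hold one and the same table, whose columns are named by sample title. Every value (100%) was a whole multiple, within 0.01, of the smallest positive value of its column, so reads were recovered by division: 1 read is worth 1.03 (soft), 0.943 (intermediate) and 1.03 (stiff) units.

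A count test needs replicates and was not made. Log2 ratios used a pseudocount of 1, which understates changes of low genes. Past the fold means a log2 ratio of at least 0.5 in size, counted over genes with a mean of at least 50. The members, the lists and the named genes were chosen with earlier results of these data known. All 42 members are described. From the 5 lists of other cell cycle genes, those at 0.5 or beyond with a mean of at least 50 are named. The 3 most abundant per list are named too. Further genes, Incenp and Cdc25a among them, were named after their values were seen. Lengths, GC contents and positions are those of the canonical transcripts of GENCODE vM39 (GRCm39), and 11633 of the 11873 genes matched by symbol. Exons of 15 of the 42 genes overlap exons of another gene on the opposite strand, whose reads cannot be told apart if strand was not used (Anln, Aurka, Ccna2, Cdc20, Cdc25b, Cdc25c, Cenpf, Ckap2l, Cks2, Kif20a, Kif4, Nuf2, Nusap1, Plk1 and Prc1), and the pseudogene rows Ccnb1-ps and Ccnb2-ps held at most 12 reads.

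Trends with length and GC content were fitted over the 300 nearest genes. Alternatives were other pseudocounts, 4 scalings, other minimum means and folds, and the trend fits. The counting of genes past the fold, the interval and the trend fit were tested on simulated data. TMM factors came from edgeR 4.0.16 in R 4.3.3. All else used scipy 1.17.1, pandas 2.3.3 and numpy 2.4.6 under Python 3.11.15, with figures by matplotlib 3.10.9.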

Additional observations from a re-analysis of the deposited data

How the results depend on the processing

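No paired analysis was possible because each stiffness has 1 library, and for the same reason no library could be left out. The fits with coding length and without genes of over 3000 nt coding length were chosen after seeing the data. The median log2 ratio of the mitosis genes kept its sign under all alternatives run: from -0.35 to -0.25 between stiff and soft, from 0.05 to 0.10 between intermediate and soft, and from -0.42 to -0.34 between stiff and intermediate. The 4 scalings moved the stiff to soft ratios by -0.066 to -0.0002, and of 126 single ratios 115 stayed inside their counting interval under the pseudocounts, the scalings and the transcript length trend. No ratio past the fold changed sign. The 11 others left it with the trend of transcript length and GC content subtracted, and 1 of them also under upper quartile scaling.

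The counts past the fold followed the threshold by construction. Between stiff and soft the 6 lower genes became 22 of 41 with a threshold of 0.25 (15.2% of the background), 0 with one of 1 (0.387%) and 3 with the transcript length and GC trend subtracted, of which Ccnb2 and Cdc25c were among the 6 and Cdc25b was not. The 1 higher gene became 2 with a mean of at least 10 or no filter, which let in Cenpe. The count was 0 with a mean of at least 200, which left out Kif4 (mean 181). It was also 0 at a ratio of at least 1 (3.22%) and with either trend subtracted. Background shares under the other minimum means are not given here. Between intermediate and soft the 1 higher gene became 9 at 0.25 (14.0%), and 0 at 1 (0.16%), with a mean of at least 200 and with the coding length and GC trend subtracted. Between stiff and intermediate the 11 lower genes became 31 at 0.25 (12.5%), 0 at 1 (0.421%), and 7 with either trend subtracted. With the 50 bases after the start added, promoters with a CHR sequence went from 15 to 32 and with both elements from 14 to 28. Over the same step the share with both went from 4.6% to 5.58% of background promoters and from 6.02% to 7.52% of all promoters. Reads limit Cenpe, Cenpf, Kif20b, Mki67 and Kif4, whose intervals are the widest.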
